A study of Mus musculus with 11 samples.

Results

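Transcripts of 7 regulators of the ERK pathway were followed in mouse macrophages: the Sprouty genes Spry1, Spry2 and Spry4, the Spred genes Spred1 and Spred2, the EGF receptor inhibitor Errfi1 and the kinase Map3k8. Each was taken from the probe set whose platform annotation gives its symbol alone, and the row with the highest mean was used where a gene had several. All 7 were found, from 8 probe sets, among 18755 genes with a name of their own. The cells were primary macrophages derived from the marrow of C57Bl/6 wild type mice, and every group was kept in 5 ng/ml macrophage colony-stimulating factor (M-CSF, the growth factor macrophages depend on). For every group the labels give 24 hours after replating. One group of 4 arrays came from cells given LPS (lipopolysaccharide from bacteria, the ligand of Toll-like receptor 4) at 100 ng/ml and PGE (prostaglandin E, a lipid signal whose form the labels leave unnamed) at 10 µM for 1 hour. Another of 3 arrays came from cells given the same LPS alone for 1 hour, and the last of 4 arrays came from cells left untreated. No group received PGE without LPS. The labels give neither the age nor the sex of the mice and do not say whether replicates were separate animals or cultures, so the p-values measure only the spread between these samples.

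ERK is a kinase switched on by a chain that runs from Ras to Raf, then MEK, then ERK. Growth factor receptors start the chain at Ras, whereas Toll-like receptors in macrophages reach MEK through Map3k8 (also known as Tpl2 or Cot), which resting cells hold bound to the NF-kB precursor p105. Sprouty and Spred proteins are feedback inhibitors that act between the receptor and Raf, and Errfi1 (also known as Mig6) binds the kinase domain of EGF receptors and blocks it. Map3k8 is thus an activator of the pathway, and the other 6 proteins are inhibitors of it or of its receptors.

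Levels are on a log2 scale, so that a difference of 1 is 2-fold, and they are comparable between arrays for 1 gene but not between genes. Changes are given ± SE from a limma fit over all 11 arrays, and a gene was called when its Benjamini-Hochberg adjusted p over all 18755 genes was under 0.05. The 3 comparisons share arrays, so their changes are not independent of each other. Arrays of 1 group correlated at 0.9959 to 0.998 across genes, which are not independent replicates, and their number limits the precision. All 10 macrophage markers, among them the M-CSF receptor gene Csf1r, lay above the upper quartile of every array. None of the 42 measured markers of 7 other cell types did, although 4 of the 42 lay above the median of every array, and the mean level of each of those lists was 3.07 to 4.86. Their part in the results was not tested. The mean level of the macrophage list was 11.54 to 11.60 in LPS plus PGE, 11.55 to 11.59 in LPS and 11.38 to 11.47 in untreated arrays. Cd14, an LPS co-receptor gene, averaged 12.71, 12.13 and 10.49 in these groups, and without it, a choice made after seeing the data, the mean of the other 9 was 11.41 to 11.48, 11.48 to 11.53 and 11.47 to 11.59. Fewer cells of a type and less RNA per cell cannot be told apart in such bulk samples.

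An hour of LPS raised 6 of the 7 transcripts, and adding PGE to LPS split them. Spred2, Errfi1 and Spry4 were higher with PGE than with LPS alone, whereas Spry1, Spred1 and, by less, Map3k8 were lower. Spry2 did not pass in that comparison. In LPS plus PGE against LPS, 3 members were called higher, against 11.9% of all genes, and 3 were called lower, against 12.9%. In LPS plus PGE against untreated, 6 were called higher (13.8% of all genes) and none lower (17.9%), the exception being Spred1. In LPS against untreated, 6 were called higher (6.55% of all genes) and none lower (6.69%), the exception being Spry4. The arrays of LPS plus PGE and LPS overlapped for no member, with 3 members higher (15.5% of all genes) and 4 lower (18.3%). All 7 were higher without overlap in LPS plus PGE against untreated (13.7%, and 21.4% lower), as were 6 in LPS against untreated (10.5%, and 12.6% lower). The median change of the members in these comparisons was -0.24, 0.77 and 0.86, against -0.005, 0.017 and -0.015 over all genes. When all arrays were shifted to the same median, the calls over all genes split differently: 1804 higher and 3004 lower against LPS (2225 and 2416 as deposited), 4499 and 2119 for LPS plus PGE against untreated (2587 and 3359, but 2596 and 2206 after quantile and 2129 and 1788 after cyclic loess normalization), and 2747 and 613 for LPS against untreated (1229 and 1254). That shift moved the median of all genes to -0.037, 0.099 and 0.1. Among genes at or above the median level, which leaves out Spry4, the calls were 503 higher and 2842 lower in LPS plus PGE against LPS and 999 and 3720 in LPS plus PGE against untreated. In the first of these, 2 members were called higher and 4 lower. More genes were called lower there than over all genes, so 12.9% is too low a yardstick for the members called lower. The 6 rises with LPS, which were 0.72 or larger, were called with equal array medians and with the dimmer genes left out too.

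**Figure D1:**
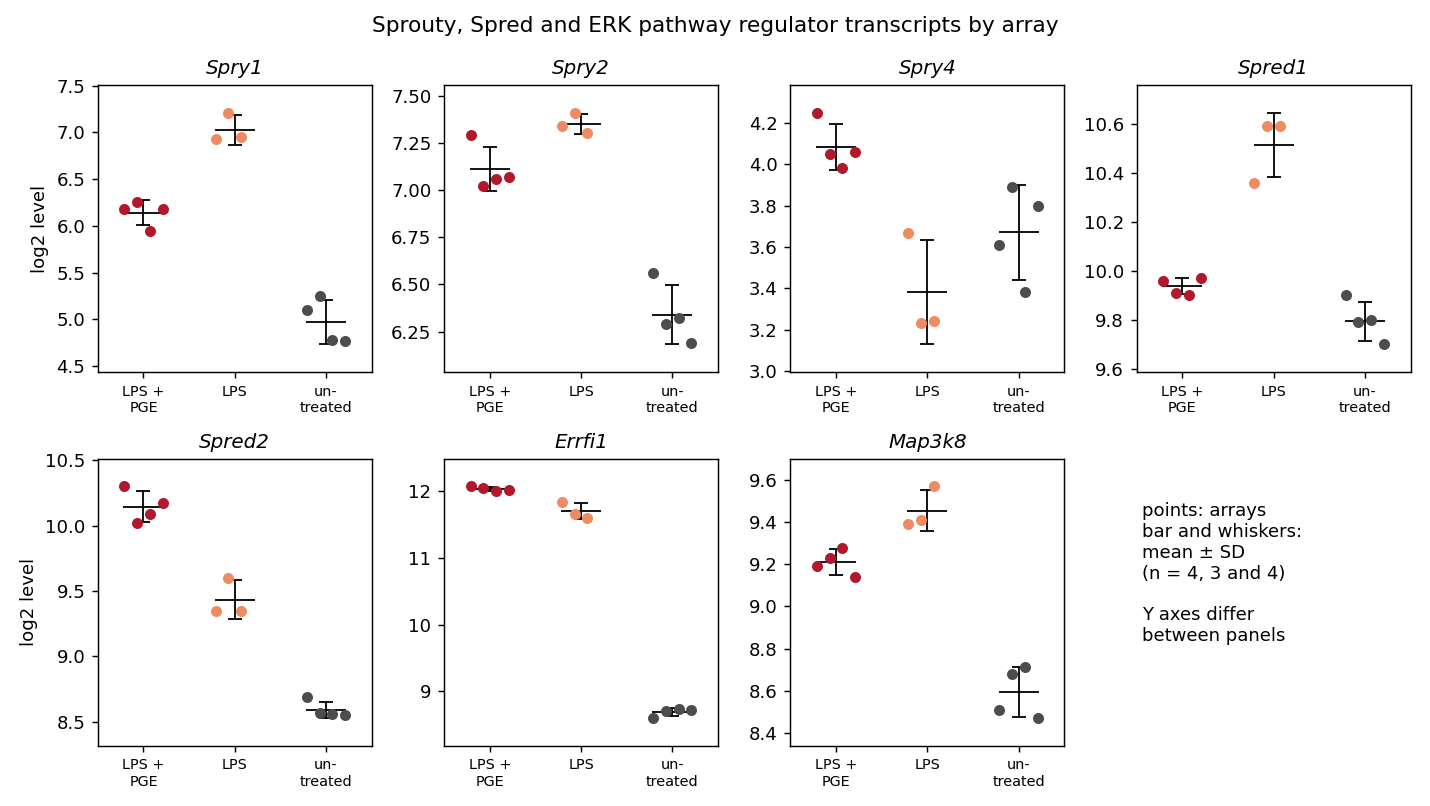
Log2 level of each of the 7 transcripts on every array (points), with the mean and SD of each group (bar and whiskers), for LPS plus PGE (n = 4), LPS (n = 3) and untreated cells (n = 4). Errfi1 lay at 12.00 to 12.07, 11.60 to 11.83 and 8.60 to 8.74 in these groups, and Spry1 and Spred1 were lower with PGE than with LPS alone while Spred2 was higher.

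Of the 3 Sprouty genes, which encode feedback inhibitors of receptor signalling, Spry1 had the largest change with LPS. It was at 6.18, 6.25, 5.95 and 6.18 in LPS plus PGE arrays, at 6.93, 7.21 and 6.95 in LPS arrays and at 5.10, 5.25, 4.78 and 4.77 in untreated arrays. No 2 of these groups overlapped, with LPS alone highest and LPS plus PGE between it and untreated. LPS raised Spry1 by 2.06 ± 0.13, or 4.16-fold (limma adjusted p = 2.24e-07). With PGE it fell by 0.89 ± 0.13 relative to LPS alone, a 1.85-fold lower level (limma adjusted p = 0.000788), and stayed 1.17 ± 0.12 above untreated (limma adjusted p = 1.22e-05). In LPS plus PGE against LPS its change was the 50th lowest of 18755 genes.

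Spry2, the family member most studied as a brake on growth factor signalling, rose with LPS and with LPS plus PGE. Its levels were 7.29, 7.02, 7.06 and 7.07 with LPS plus PGE, 7.34, 7.41 and 7.30 with LPS and 6.56, 6.29, 6.32 and 6.19 without treatment. Both stimulated groups lay wholly above untreated, by 0.77 ± 0.08 with PGE (limma adjusted p = 2.67e-05) and by 1.01 ± 0.09 without it (limma adjusted p = 8.64e-06). Between the stimulated groups the arrays were separated by only 0.02, and the difference of -0.24 ± 0.09 did not pass (95% interval -0.44 to -0.04, limma adjusted p = 0.0739). It passed without LPS plus PGE replicate 1 (-0.30, limma adjusted p = 0.0434) or untreated replicate 1 (limma adjusted p = 0.0421), with equal array medians (0.0452) and with the dimmer genes left out (0.0446). In the other 17 of 21 alternatives it did not pass. The difference shrank to -0.13 after quantile (limma adjusted p = 0.379) and cyclic loess normalization (limma adjusted p = 0.415).

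Spry4, whose protein inhibits receptor-driven Ras activation, was the exception to the LPS rise. It had 4.25, 4.05, 3.98 and 4.06 in LPS plus PGE arrays, 3.67, 3.23 and 3.24 in LPS arrays and 3.61, 3.89, 3.38 and 3.80 in untreated arrays. LPS plus PGE lay above both other groups, and those 2 shared part of their range. Spry4 was 0.70 ± 0.14 higher in LPS plus PGE than in LPS (1.63-fold, limma adjusted p = 0.00427) and 0.41 ± 0.13 higher than in untreated cells (limma adjusted p = 0.0259). LPS alone gave -0.29 ± 0.14 against untreated (95% interval -0.59 to 0.00, limma adjusted p = 0.2), which did not pass. All these levels were close to the lower quartile of the arrays, where a low signal was not told from none. That quartile was itself at 4.00 to 4.05 in LPS plus PGE arrays, 3.80 to 3.87 in LPS arrays and 3.82 to 3.90 in untreated arrays, and the part of this shift in the Spry4 result was not tested. The call against untreated ended after quantile normalization (limma adjusted p = 0.0636) or cyclic loess normalization (0.119), and when any of 3 arrays was left out, namely LPS plus PGE replicate 1 (0.0752) or replicate 1 (0.0575) or 3 (0.0693) of the untreated group. The call against LPS was kept after cyclic loess normalization (0.57, limma adjusted p = 0.0238).

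The Spred genes, whose proteins bring the Ras inactivator neurofibromin to the membrane, both rose with LPS and then parted with PGE. Spred1 had 9.96, 9.91, 9.90 and 9.97 in LPS plus PGE arrays, 10.36, 10.59 and 10.59 in LPS arrays and 9.90, 9.79, 9.80 and 9.70 in untreated arrays. LPS alone stood apart at the top, and the lowest LPS plus PGE array was only 0.01 above the highest untreated one. LPS raised Spred1 by 0.72 ± 0.07 (1.65-fold, limma adjusted p = 2.12e-05). With PGE it was 0.58 ± 0.07 below LPS alone, a log2 change of -0.58 (limma adjusted p = 0.000332), and its 0.14 ± 0.07 against untreated did not pass (95% interval 0.00 to 0.29, limma adjusted p = 0.117). That last difference passed with equal array medians (0.23, limma adjusted p = 0.026) and after cyclic loess normalization (0.25, limma adjusted p = 0.0189).

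Spred2 had 10.30, 10.02, 10.09 and 10.17 in LPS plus PGE arrays, 9.35, 9.60 and 9.35 in LPS arrays and 8.69, 8.57, 8.56 and 8.55 in untreated arrays. The 3 groups formed separate steps, the reverse of Spred1 in that the arrays with PGE were highest. Spred2 was 0.71 ± 0.09 higher in LPS plus PGE than in LPS (1.64-fold, limma adjusted p = 0.000245) and 1.55 ± 0.08 higher than in untreated cells (2.93-fold, limma adjusted p = 2.52e-08). LPS alone raised it by 0.84 ± 0.09 (limma adjusted p = 2.49e-05). A second, dimmer Spred2 probe set, not used for the gene, had 8.61, 8.11, 8.13 and 8.44 with LPS plus PGE, 7.41, 7.21 and 7.19 with LPS and 6.99, 6.67, 6.58 and 6.54 without treatment. Its groups were ordered as those of the first, with 1.05 ± 0.15 for LPS plus PGE against LPS (limma adjusted p = 0.00202 over all 35309 probe sets) and 0.58 ± 0.15 for LPS against untreated (limma adjusted p = 0.0312).

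Paralog pairs were followed on each array as the difference between the 2 genes, set to 0 at the untreated mean. Spred2 minus Spred1 was 1.31 to 1.54 in LPS plus PGE arrays, -0.05 to 0.22 in LPS arrays and -0.03 to 0.06 in untreated arrays. Its mean was 1.41 ± 0.10 (SD, n = 4) with PGE and 0.12 ± 0.15 (SD, n = 3) with LPS alone, so the pair moved nearly in parallel with LPS alone and apart with LPS plus PGE. Spry4 minus Spry1 was -0.90 to -0.63 with LPS plus PGE, -2.68 to -1.95 with LPS and -0.18 to 0.34 without treatment. Unlike the Spred pair, this pair stood farther from 0 with LPS alone than with LPS plus PGE. Spry4 in LPS arrays lay below their lower quartile, at a level not told from no signal, so the size of this second difference does not measure how far the genes parted. These pairs were picked with their responses known, so no test is given.

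**Figure D2:**
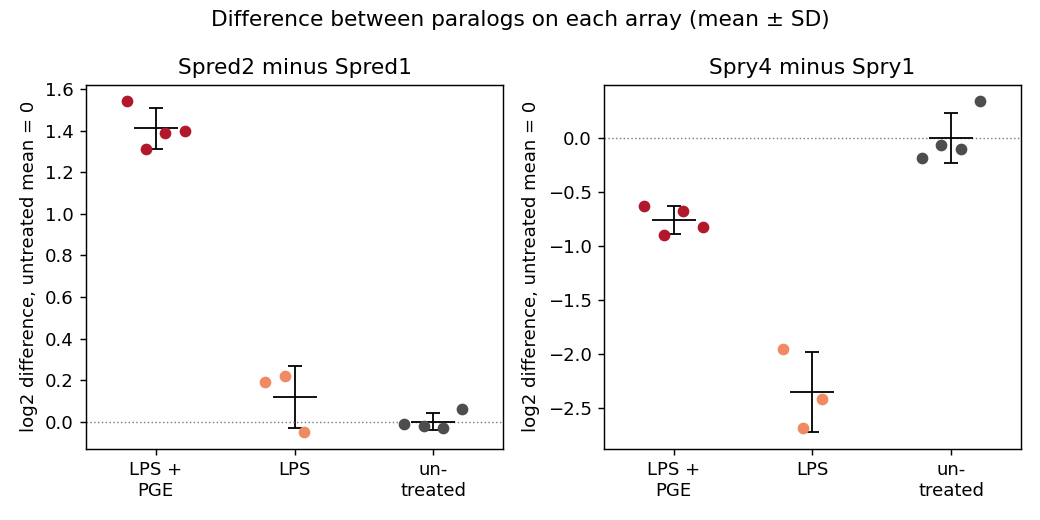
Difference in log2 level between 2 paralogs on each array, with the untreated mean set to 0, for Spred2 minus Spred1 and Spry4 minus Spry1. Points are arrays and bars are mean and SD of LPS plus PGE (n = 4), LPS (n = 3) and untreated cells (n = 4). Spred2 minus Spred1 stood at 1.31 to 1.54 in LPS plus PGE arrays and near 0 in the other groups. Spry4 was below the lower quartile of the LPS arrays, so the size of its difference from Spry1 there is not a measure of divergence.

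Errfi1, an inhibitor of EGF receptors, had the largest change of the members against untreated. It was at 12.07, 12.05, 12.00 and 12.02 in LPS plus PGE arrays, at 11.83, 11.66 and 11.60 in LPS arrays and at 8.60, 8.70, 8.74 and 8.72 in untreated arrays. The stimulated arrays lay at least 2.86 above the highest untreated one, and those with PGE lay above those with LPS alone. LPS raised Errfi1 by 3.01 ± 0.07, or 8.04-fold (limma adjusted p = 1.75e-11), the 57th largest rise of 18755 genes. LPS plus PGE raised it by 3.35 ± 0.06, or 10.2-fold, over untreated (limma adjusted p = 1.73e-12) and by 0.34 ± 0.07, or 1.26-fold, over LPS (limma adjusted p = 0.00504).

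Map3k8, the kinase that activates MEK downstream of Toll-like receptors, rose with LPS. It had 9.19, 9.23, 9.28 and 9.14 in LPS plus PGE arrays, 9.39, 9.41 and 9.57 in LPS arrays and 8.51, 8.68, 8.71 and 8.47 in untreated arrays. Both stimulated groups were above untreated, and the arrays with PGE were slightly below those with LPS alone. The rise over untreated was 0.62 ± 0.07 with PGE (1.54-fold, limma adjusted p = 4.06e-05) and 0.86 ± 0.08 without it (1.82-fold, limma adjusted p = 7.87e-06). The difference of -0.24 ± 0.08 between LPS plus PGE and LPS passed narrowly (limma adjusted p = 0.0393). That call ended without LPS replicate 2 (0.0568) or 3 (0.14), without LPS plus PGE replicate 1 (0.0817), 2 (0.0642) or 4 (0.0856), with array weights (0.0707), with all probe sets tested (0.06), and after quantile (0.143) or cyclic loess normalization (-0.13, limma adjusted p = 0.29).

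**Figure D3:**
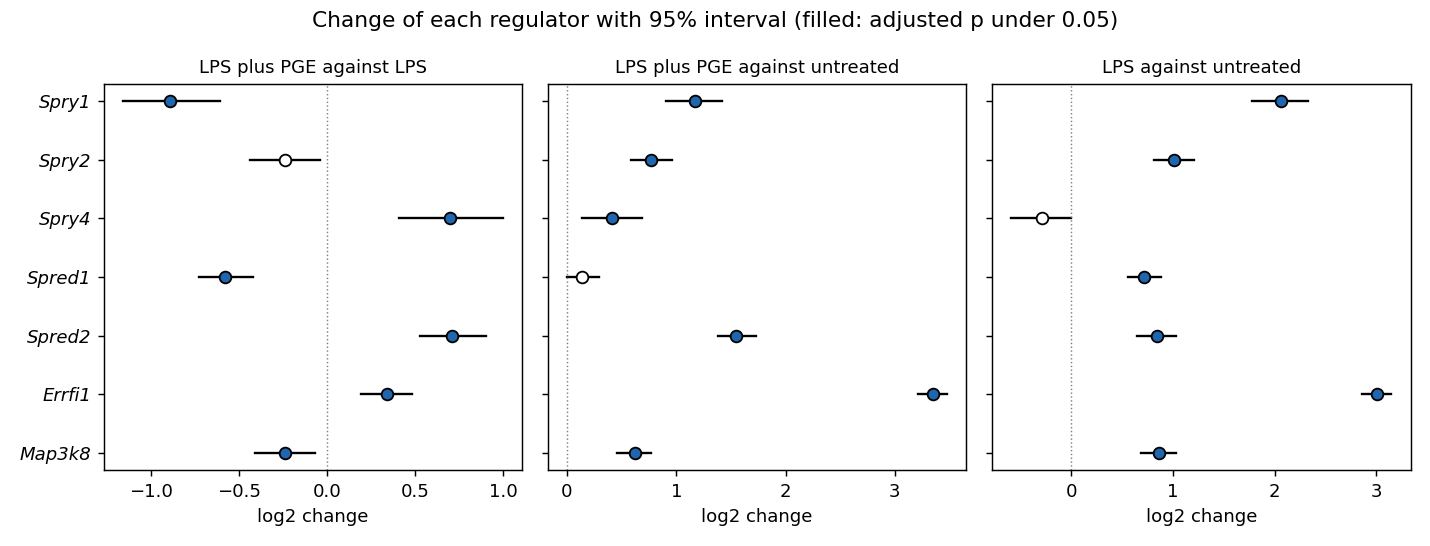
Log2 change of each transcript with its 95% interval in LPS plus PGE against LPS, LPS plus PGE against untreated and LPS against untreated, from the limma fit over 11 arrays. Filled points had an adjusted p under 0.05. With PGE, Spry1 (-0.89) and Spred1 (-0.58) lay below LPS alone and Spred2 (0.71), Spry4 (0.70) and Errfi1 (0.34) above it, and 6 of 7 points in each of the other panels were filled above 0.

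Sequence just before the transcription starts was described for members that PGE moved in opposite directions. Prostaglandin E receptors of some types raise cyclic AMP, whose responsive factor CREB binds the palindrome TGACGTCA or its shorter form TGACG. RefSeq promoter windows on GRCm38.p6, each 300 bases long with 250 before the start and 50 after it, were taken by symbol for 5 of the 7 members and gave 6 windows, Errfi1 having 2 starts. The promoters of Spry4 and Map3k8 were not analysed here, so 1 of the 3 members called higher with PGE has no window. The 100 bases before a start are printed 5′ to 3′ for Errfi1 (at the second of its starts, chosen because it holds a match) and Spred2, both higher with PGE, and for Spry1 and Spred1, both lower with it, and capitals mark TGACG on either strand.
Errfi1, chr4:150854970-150855069, plus strand: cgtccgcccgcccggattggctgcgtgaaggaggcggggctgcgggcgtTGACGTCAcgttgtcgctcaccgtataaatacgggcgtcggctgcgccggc
Spred2, chr11:19924342-19924441, plus strand: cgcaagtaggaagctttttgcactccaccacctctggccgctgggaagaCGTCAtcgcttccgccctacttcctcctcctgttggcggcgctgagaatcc
Spry1, chr3:37639847-37639946, plus strand: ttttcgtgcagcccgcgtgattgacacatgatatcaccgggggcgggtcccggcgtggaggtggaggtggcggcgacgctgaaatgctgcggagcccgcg
Spred1, chr2:117120971-117121070, plus strand: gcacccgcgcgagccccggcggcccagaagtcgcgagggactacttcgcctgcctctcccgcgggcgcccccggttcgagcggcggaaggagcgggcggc

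The Errfi1 window held the full TGACGTCA, its first base at position -51 from the start, and the palindrome holds TGACG on both strands. The Spred2 window held TGACG on the minus strand, its first printed base also at -51. The windows of Spry1, Spred1, Spry2 and the first Errfi1 start, which is the annotated start of that gene, had no match. TGACG on either strand was in 2 of the 6 windows and in 20.8% of 32851 promoter windows of the mouse genome. Of those 32851, 1.79% held TGACGTCA. Because the second Errfi1 start was printed for its match, the printed sequences do not compare both directions. The AP-1 motif TGANTCA was in none of the 6 windows (7.81% of all windows), and the ETS core CCGGAA was in that of Spry2 (14.9%). An NF-kB-like motif, GGG and CC with any 5 bases between them on either strand, was in 5 of the 6 windows, as in 50.8% of all windows. These matches describe the letters only and do not show that a factor binds there.

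Other genes of the pathway were described from a list of 94, of which 80 had a probe set of their own and the rest were not analysed here. Of these 80, 15 were called higher and 12 lower in LPS plus PGE against LPS, or 33.8% against 24.7% of all genes. The split was 12 higher and 16 lower with equal array medians and 15 higher and 7 lower after cyclic loess normalization. In LPS plus PGE against untreated 22 were called higher and 6 lower (35%, against 31.7% of all genes). In LPS against untreated 19 were called higher and 1 lower (25%, against 13.2% of all genes), and with equal array medians 34 and 1. The median change of the 80 genes was -0.05, 0.01 and 0.08 in the 3 comparisons. Beside the counts by role that follow stand the shares of all genes called. These were 11.9% higher and 12.9% lower in LPS plus PGE against LPS. They were 13.8% and 17.9% in LPS plus PGE against untreated, and 6.55% and 6.69% in LPS against untreated.

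Of 6 genes of the Raf-MEK-ERK core none was called in LPS plus PGE against LPS or in LPS against untreated, and 1 was lower in LPS plus PGE against untreated, the scaffold gene Lamtor3 (-0.24 ± 0.05, limma adjusted p = 0.00604). Of 11 EGF family ligands and receptors, 5 were higher in LPS plus PGE than in LPS (11.9% of all genes). They were led by the ligand genes Nrg1 (1.04 ± 0.11) and Hbegf (0.84 ± 0.16). Of the 11, 3 were higher in LPS plus PGE than in untreated cells (13.8%) and 2 rose with LPS (6.55%). Nrg1 averaged 5.74 with LPS plus PGE and 4.70 with LPS, and Ereg, also among the 5, averaged 5.55 and 4.99. These levels lay below the array medians of 5.79 to 6.01, whereas Hbegf, at 7.02 and 6.18, lay above them. The part of such low levels in the 5 calls was not tested. Among the 5 was the receptor gene Erbb4 (0.24 ± 0.07), which lay below the lower quartile of every array and changed by about as much as that quartile, so that its signal was not told from none. Hbegf, a ligand of the receptor that Errfi1 inhibits, rose by 1.53 ± 0.16 with LPS and was 2.37 ± 0.15 above untreated with LPS plus PGE. Ereg, another ligand gene, was 1.24 ± 0.12 above untreated with LPS plus PGE and 0.69 ± 0.13 with LPS. The receptor gene Egfr itself was not called (-0.21 ± 0.14 for LPS plus PGE against LPS, limma adjusted p = 0.283).

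Of 7 other receptor kinases and ligands, 1 was higher in LPS plus PGE than in LPS, Pdgfrb (0.33 ± 0.11), and 2 were higher than in untreated cells, Csf1 (1.73 ± 0.18), which encodes M-CSF, and Pdgfrb (0.38 ± 0.10). Pdgfrb is also one of the 7 fibroblast and stroma markers used here, of which 2 were called higher and none lower in LPS plus PGE against LPS. The mean level of that list was 4.53 to 4.80 in LPS plus PGE, 4.50 to 4.54 in LPS and 4.48 to 4.70 in untreated arrays, and its part in the Pdgfrb result was not tested. Csf1 was also the 1 of them that rose with LPS (2.14 ± 0.20). Of 10 adaptors and Ras exchange factors, 2 were lower in LPS plus PGE than in LPS, the exchange factor gene Rasgrp1 (-0.50 ± 0.15) and the phosphatase gene Ptpn11 (-0.26 ± 0.06). Rasgrp1 rose with LPS (0.98 ± 0.15), the 1 gene of that role called there, and in LPS plus PGE against untreated 2 were higher, Rasgrp1 and the adaptor gene Gab1 (both 0.47), and 1 lower. Of 8 genes for Ras proteins and their GTPase-activating proteins, 3 rose with LPS, led by Rasa2 (0.41 ± 0.09) and Rasal2 (0.30 ± 0.07). None of those 8 was called in LPS plus PGE against untreated, and 2 were lower in LPS plus PGE than in LPS, Rasal2 (-0.36 ± 0.07) and Rras2 (-0.24 ± 0.08).

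Of 8 other inhibitors of receptor or Ras signalling, none rose in any comparison, where 6.55% to 13.8% of all genes were called higher. With LPS 1 fell, against 6.69% of all genes: Dok1 (-0.41 ± 0.07), an adaptor that recruits Ras inactivators. Among as few as 8 genes, these counts do not stand apart from the shares of all genes. In LPS plus PGE against LPS 3 were lower: Spred3 (-0.58 ± 0.08, limma adjusted p = 0.000567), Spry3 (-0.48 ± 0.14, limma adjusted p = 0.0291) and Dok1 (-0.47 ± 0.07, limma adjusted p = 0.00131). The same 3 were below untreated with LPS plus PGE, led by Spry3 (-0.88 ± 0.13) and Dok1 (-0.87 ± 0.07). With Spry3 and Spred3 counted, 2 of the 7 Sprouty and Spred genes were higher in LPS plus PGE than in LPS and 4 were lower. Of 3 measured genes, from 5 listed, for partners and activators of Map3k8, 2 were lower in LPS plus PGE than in LPS. These were the IKK subunit gene Ikbkg (-0.25 ± 0.07, limma adjusted p = 0.0232) and Tnip2 (-0.19 ± 0.06), whose protein holds Map3k8 stable. Tnip2 passed narrowly (limma adjusted p = 0.0492). Ikbkg was also below untreated (-0.37 ± 0.07), and none of these 3 was called in LPS against untreated.

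Downstream of ERK, 9 of 17 transcription factors and early genes rose with LPS, 11 were higher in LPS plus PGE than in untreated cells, and 7 were higher and 2 lower in LPS plus PGE than in LPS. Egr1 rose by 4.89 ± 0.11 with LPS and by 5.02 ± 0.10 with LPS plus PGE, a difference of 0.13 ± 0.11 that did not pass (limma adjusted p = 0.4). Ier3 (1.44 ± 0.12) and Phlda1 (1.22 ± 0.12), an early gene that rose by 4.04 ± 0.12 with LPS alone, were the largest of the 7. Of 6 phosphatases that act on ERK, 3 rose with either stimulus, with Dusp5 at 5.30 ± 0.07 and Dusp2 at 4.81 ± 0.10 over untreated in LPS plus PGE. Relative to LPS alone, Dusp2 (1.01 ± 0.10) and Dusp5 (0.91 ± 0.07) were higher and Dusp4 was lower (-0.59 ± 0.08, limma adjusted p = 0.000587). Of 4 kinases that ERK activates, 1 was called, Rps6ka5, in LPS plus PGE against untreated (0.33 ± 0.09).

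**Figure D4:**
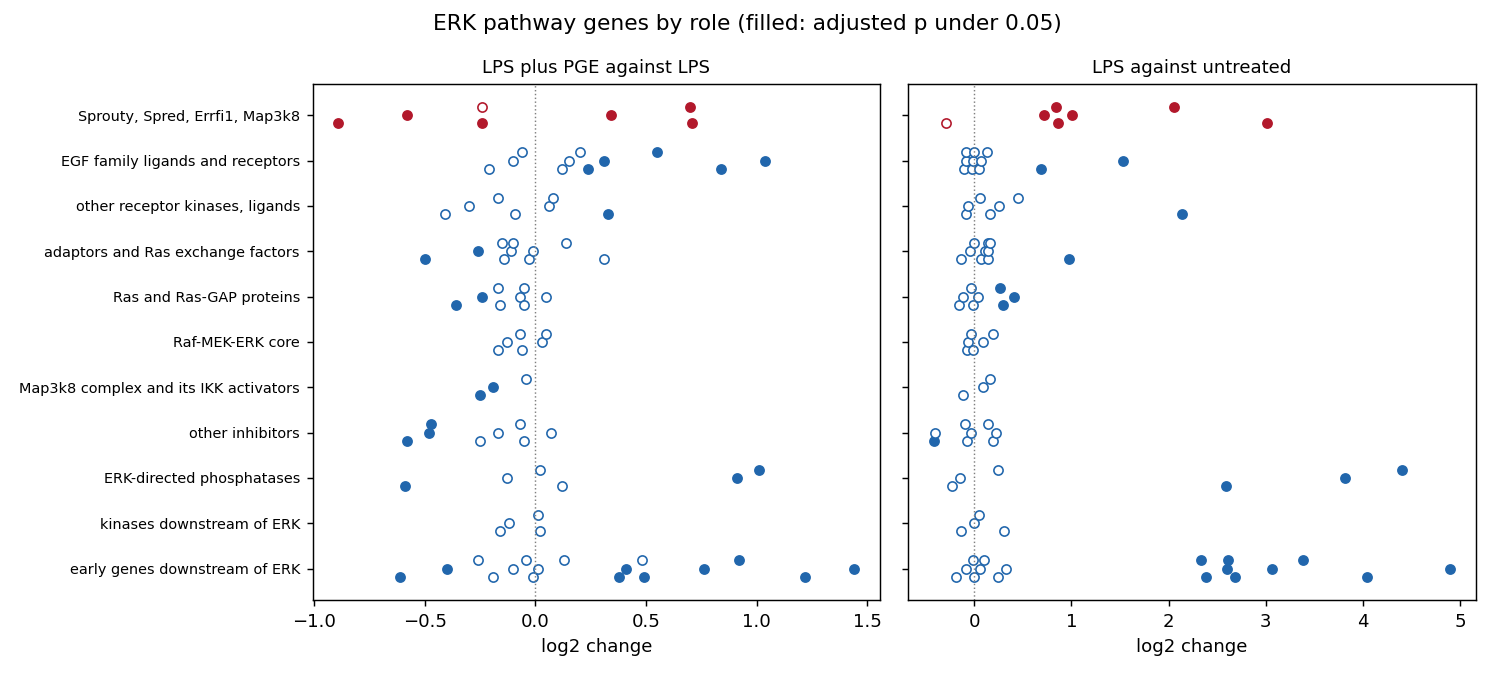
Log2 change of the 7 transcripts (red, top row) and of 80 other ERK pathway genes (blue) by role, in LPS plus PGE against LPS and in LPS against untreated. Each point is a gene, filled where its limma adjusted p was under 0.05, with a small vertical offset for legibility. None of the 6 core genes is filled in these 2 panels, whereas 9 of 17 early genes downstream of ERK are filled above 0 in LPS against untreated.

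Genes nearest to each member in pattern were named by the root mean square difference between the 2 genes over the 11 arrays, each gene set to 0 at its untreated mean. Candidates were 7551 other genes called in at least 1 comparison, counted after predicted genes and small RNA genes were left out. The neighbours of Errfi1 were the cyclic AMP phosphodiesterase gene Pde4b (0.10), the inflammasome sensor gene Nlrp3 (0.14) and Ppp1r15a (0.14), a regulator of stress-inhibited translation. Pde4b was 3.39 above untreated with LPS plus PGE and 2.93 with LPS. Those of Spred2 were the histone methyltransferase gene Dot1l (0.07), the phosphate transporter gene Slc20a1 (0.11) and the glucose transporter gene Slc2a1 (0.11). All were higher with PGE than with LPS alone, but the likeness of any neighbour to its member follows from the choice. Those of Spry1 were Trim13 (0.20), the mitochondrial carrier gene Slc25a25 (0.22) and the prostaglandin E receptor gene Ptger4 (0.26), which was 1.32 above untreated with LPS plus PGE and 1.93 with LPS.

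Spry2 lay nearest to the urokinase gene Plau (0.07), the integrin gene Itga5 (0.09) and Mdm2 (0.11), which encodes the ubiquitin ligase of p53. Spred1 lay nearest to Pogk (0.09), Foxn2 (0.09) and the activin receptor gene Acvr2a (0.10), whose change over untreated was 0.25 with LPS plus PGE and 0.71 with LPS. Map3k8 lay nearest to Ube2f (0.10), the adaptor gene Lcp2 (0.12) and the nucleotide receptor gene P2ry2 (0.12). Spry4, at its low level, lay nearest to Fbln2 (0.10), Eif5a (0.11) and Prlh (0.12). No 2 members shared a neighbour in these lists.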

How the data were processed

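Transcript levels were measured on Affymetrix mouse gene 1.1 ST arrays from 250 ng of total RNA per sample. The deposited values are log2 levels per probe set, a scale inferred from the range of the values (1.20 to 13.81) and from RMA, which per the submitters' processing notes was used beside Affymetrix Power Tools, R 2.13.1 and Partek, with no roles given. Per the labels, 12 arrays were made, and the authors dropped 1 LPS array on quality grounds. Genome build and array scan details are not given in the sources used here.

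Of 35309 probe sets, 21143 carried 1 gene symbol, 1870 several and 12296 none. No probe set joined a member with another gene. For 18755 genes, limma 3.58.1 in R 4.3.3 estimated the mean of each group and tested the differences two-sided and unpaired (8 residual and 3.77 prior degrees of freedom). The code was first tested on simulated data, in which far fewer genes were changed than were called here. It called 14%, 16% and 0% of changes of 0.25 and 66%, 78% and 54% of changes of 0.5 in the 3 comparisons. A gene not called was thus not shown to be unchanged. Python 3.11.15 with matplotlib 3.10.9 drew the figures. The members and lists were chosen with earlier results of these data known. Named genes were the members, the 2 largest called changes in each role and comparison, and 3 neighbours in pattern per member. Egfr, Erbb4, Dusp4, Cd14 and the comparisons of Ereg, Hbegf, Csf1, Rasgrp1, Dok1, Egr1 and Phlda1 beyond that rule were added after their values were seen. Alternatives are listed with their effect at the close: other normalizations, a trended robust variance, array weights, a fit of only the groups compared, a filter on dim genes, probe sets averaged or all tested, a block for the replicate number, and leaving out arrays in turn.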

Additional observations from a re-analysis of the deposited data

Results flagged for a closer look

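Of 14 groups of 4 arrays checked, 1 held a sample far from the others, and chance gives about 1 such group in 20. Spred2 was at 8.69 in untreated replicate 1, against 8.55 to 8.57 in the other untreated arrays, a gap of 0.907 of the range of that group. Without that array the Spred2 changes were 0.71 for LPS plus PGE against LPS, 1.58 for LPS plus PGE against untreated and 0.87 for LPS against untreated, all called by limma.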

How the results depend on the processing

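The 21 changes of single members gave 438 values under the alternatives, of which 418 kept their direction and their side of the threshold and 20 crossed the threshold, none with a change of sign. Part of these values could not change direction. Leaving out an array of the group not compared, or altering only the variance or the set of genes tested, keeps the change itself. The 418 thus overstate how far the directions were checked. The 20 belonged to Map3k8 and Spry2 in LPS plus PGE against LPS and to Spry4 and Spred1 in LPS plus PGE against untreated, and their causes were not tested. With the dimmer genes left out Spry4 was not tested. The number of members called stayed at 5 to 7 in LPS plus PGE against LPS, 5 to 7 in LPS plus PGE against untreated and 6 in LPS against untreated. Over all genes, 4641 were called in LPS plus PGE against LPS, but 2358 after quantile and 2123 after cyclic loess normalization. With 1 array left out there were 2945 to 4455, the lowest without LPS replicate 3. In LPS plus PGE against untreated 5946 were called, and 3917 after cyclic loess normalization. The pathway genes called in LPS against untreated numbered 20, and 35 with equal array medians.

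The labels do not state whether equal replicate numbers mark a pair. Deviations from the group means correlated at -0.020 to 0.207 in 10 same-numbered pairs of arrays from different groups. Of these 10 pairs 7 were above 0.1, and of 30 differently numbered pairs 0 were. An array correlated best with its own number in 18 of 20 checks. These values are a hint from the data and not the design. With the replicate number as a block 4698, 6124 and 2454 genes were called in the 3 comparisons, and no member's call changed. No background signal was available to tell the low level of Spry4 from none.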
